A study of Mus musculus with 2 samples.

Results

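The mitochondrially encoded genes were taken as every row of the deposited gene tables whose gene ID carries a symbol starting with mt- in the GENCODE mouse annotation, which gave 37 of 43346 gene rows. They comprise 13 protein-coding genes, 2 ribosomal RNA genes and 22 transfer RNA genes, all on the mitochondrial chromosome. They were read in 2 libraries of forebrain from B6NCrl mouse embryos at embryonic day 11.5, one from 109 pooled embryos (replicate 1) and one from 88 (replicate 2), both sexes mixed and with no treatment or allele named. Each library was made, per the protocol link in the labels, by a SmartSeq protocol from 1 cell-equivalent of total RNA above 200 nucleotides, so the title of single cell RNA-seq in the labels describes the input amount and not the isolation of a cell. As 1 group was deposited, no groups are compared and no p-value is given.

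The mitochondrial genome is a small circle that codes for core subunits of the respiratory chain and the ATP synthase, and for the rRNAs and tRNAs that translate them inside the organelle. Each strand is transcribed as a long precursor, and the tRNAs that lie between most of the other genes are cut out to release mRNAs and rRNAs. All other subunits of these complexes are coded in the nucleus and imported. Nuclear chromosomes also carry old insertions of mitochondrial DNA, known as nuclear mitochondrial segments, whose annotated genes are pseudogenes.

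The libraries held 27395002 and 27977544 expected counts (estimated reads per gene) over gene rows, and spike-in RNAs held 4.35% and 3.35% of all counts. Of 9 forebrain marker genes, 8 reached a TPM (transcript abundance scaled by length and library) of 1 in both libraries. Of all gene rows, 16.6% did. The forebrain markers were led by Nr2f1 at 115 and 149 TPM, Pax6 at 85.6 and 30.1 and Nr2e1 at 67.3 and 44.3. All 8 hindbrain and spinal cord markers, En1, Gbx2 and Egr2 among them, had 0 counts. The part of the small input in these 0 counts was not tested. All 5 neuronal genes reached 1 TPM in both libraries, and 4 of 5 neural progenitor genes did, against the same 16.6%. The highest neuronal ones were Tubb3 at 512 and 356 TPM, Stmn2 at 176 and 187 and Map2 at 72.2 and 46.1. Those of the progenitors were Vim at 741 and 1290 TPM, Fabp7 at 438 and 1010 and Hes5 at 24.7 and 105. Blood was present, with 6 of 8 erythroid markers reaching that level, also against 16.6%. Over all 8 the sum was 31166 and 37360 TPM. The globin genes Hbb-y at 12348 and 16181 TPM, Hba-a2 at 7689 and 8703 and Hba-x at 4019 and 4454 led it. In tissue RNA of this kind, more cells of a type and more RNA per cell cannot be told apart.

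Several of these genes have a near-identical copy on chromosome 1, and the sequences are shown first because they decide which reads can be assigned. Of the annotated transcripts outside the mitochondrial chromosome, 17 genes matched a mitochondrial gene with at least 90% identity over at least 100 bases, and 15 of them are rows of the deposited tables. A block of 7 unprocessed pseudogenes on the minus strand at chr1:24611535-24616197 (mm10) spans 4663 bases and corresponds to positions 6381 to 11042 of the mitochondrial chromosome. It runs from the 3′ part of mt-Co1 through mt-Co2, mt-Atp6, mt-Co3, mt-Nd3 and mt-Nd4l to the 5′ part of mt-Nd4. In 5 of the 7 pairs no base of the copy differed from the mitochondrial gene. The mitochondrial rows of mt-Co2 and mt-Atp6 are 3 bases longer than their copies, and that of mt-Co3 is 1 base longer. These extra bases are the capitals in the 3′ ends below, which come from GENCODE transcripts and lie at chrM:9351-9390, chrM:7657-7696 and chrM:8568-8607 on the plus strand, with the copies on the minus strand at chr1:24613189-24613227, chr1:24614885-24614921 and chr1:24613974-24614010.
mt-Co3: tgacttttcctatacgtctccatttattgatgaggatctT
Gm28437: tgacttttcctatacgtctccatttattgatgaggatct
mt-Co2: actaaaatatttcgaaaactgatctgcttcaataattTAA
Gm28661: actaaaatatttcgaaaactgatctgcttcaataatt
mt-Atp6: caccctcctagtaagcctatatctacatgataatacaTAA
Gm10925: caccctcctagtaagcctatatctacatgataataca

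The other 2 pairs differ near the start of the copy. Gm28438 differs from mt-Nd3 by T3C, counted from 1 at the 5′ end of the mitochondrial gene, with the mitochondrial base first. Gm29216 covers 492 bases of mt-Co1 with 6 substitutions, T1056A, C1057T, A1059G, A1060G, C1062A and A1066T, all within its first 13 bases. The first 40 bases of each copy are set against the mitochondrial gene here, at chrM:9459-9498 against chr1:24613080-24613119 and chrM:6381-6420 against chr1:24616158-24616197, with the substituted bases in capitals. Past these bases the 2 sequences of each pair are the same to the end of the copy.
mt-Nd3: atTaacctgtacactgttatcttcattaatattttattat
Gm28438: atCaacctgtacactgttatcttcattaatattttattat
mt-Co1: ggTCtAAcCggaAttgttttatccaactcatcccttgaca
Gm29216: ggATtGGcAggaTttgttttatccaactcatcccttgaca

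Reads of the paired genes were split between the rows, and for some genes most of them went to the pseudogene. In the pair of mt-Co3, which encodes subunit 3 of cytochrome c oxidase, the mitochondrial row held 18018 and 17232 counts and Gm28437 held 113845 and 117336, or 86.3% and 87.2% of the pair. The copy Gm10222 held 89.3% and 91.4% of the reads of the mt-Nd4l pair, and Gm28438 held 74.5% and 79.8% of those of the mt-Nd3 pair. In the mt-Co2 pair Gm28661 held 60.1% in replicate 1 and 36.99% in replicate 2 by expected counts, and 44.6% and 35.9% by posterior mean counts, with a posterior SD of 8869 and 8195 counts. By posterior mean counts Gm28437 held 63.8% and 65.2% of the mt-Co3 pair. Gm29216 held 27.3% and 25.7% of the mt-Co1 pair, and Gm10925 held 23.2% and 18.5% of the mt-Atp6 pair. The mt-Nd4 pair differed from the rest. Gm28439 is identical to the first 876 bases of mt-Nd4 and held 2.29 and 3.56 counts, against 34357 and 31696 for the gene.

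Over the 7 pairs, the copies held 201664 and 193093 counts, which was 46.7% and 43.4% of the reads of the pairs. Reads inside an identical stretch carry no base that tells the rows apart, so how many came from the nuclear copies was not tested. The 8 other copies in the tables were 90.7% to 97.6% identical, and 5 of them had 0 counts in both libraries. All 8 together held 43.2 and 47.4 counts. Levels are therefore given below both for the mitochondrial row alone and for the row with the counts of its copies added, divided by the effective length of the mitochondrial row.

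**Figure D1:**
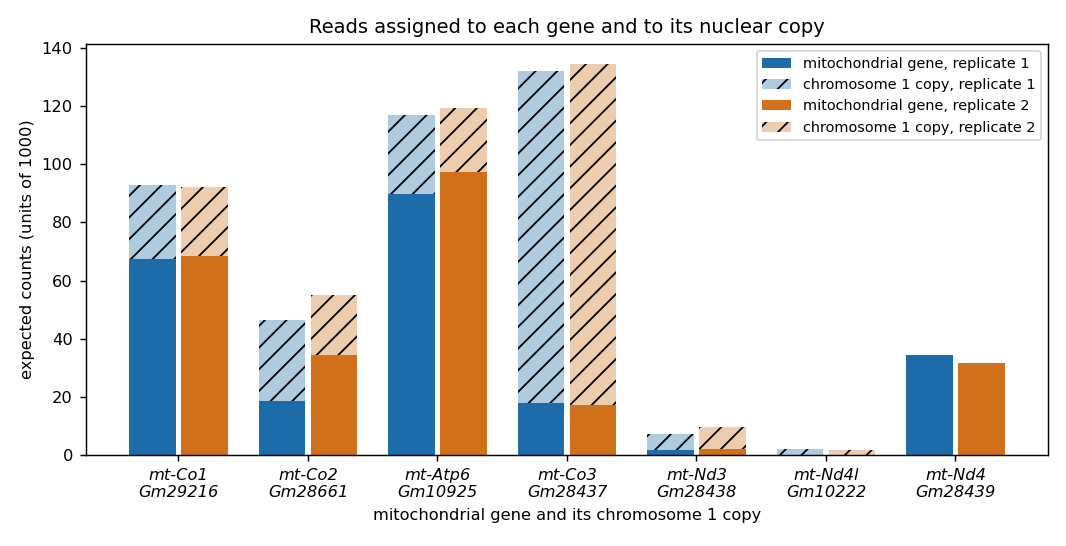
Expected counts, in units of 1000, of 7 mitochondrial genes (solid) and their chromosome 1 copies (hatched, stacked above) in replicate 1 (blue) and replicate 2 (orange). The stacked totals of the mt-Co2 pair, 46546 and 54910 counts, lie closer together than the solid parts, 18590 and 34599, and the mt-Co3 pair is mostly hatched.

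The deposited intervals of TPM were wide for some genes of the block and narrow for others. For mt-Co3 the interval ran from 831 to 6891 TPM in replicate 1 and from 760 to 6564 in replicate 2, an upper bound 8.29 and 8.64 times the lower one. Its posterior mean, 3036 and 3010 TPM, was 2.58 and 2.65 times the point estimate of 1175 and 1134. For mt-Nd4l, a complex I subunit, the interval ran from 12.6 to 119 TPM and from 4.48 to 130. The intervals of mt-Co2, from 1127 to 3247 and from 1877 to 3825 TPM, overlapped although the point estimates were 1420 and 2667. The intervals of mt-Co1 ran from 2016 to 2051 and from 2064 to 2100 TPM. Those of mt-Nd4 ran from 1159 to 1184 and from 1078 to 1102. Both were narrow. Both genes have a copy in the block, which covers 492 of the 1545 bases of mt-Co1 and 876 of the 1378 of mt-Nd4. A total of 7 of the 15 mRNA and rRNA rows had a posterior SD of 0 counts in both libraries, which were mt-Rnr1, mt-Rnr2, mt-Nd1, mt-Atp8, mt-Nd5, mt-Nd6 and mt-Cytb. None of these 7 has an annotated copy in the chromosome 1 block. mt-Atp8 lies within the mitochondrial stretch that the block corresponds to, and the bases of the block between its annotated genes were not read. For 9 of the 15 rows in each library the point TPM lay outside its own interval, against a background in replicate 1 of 15.6% of genes whose mean level was 10 TPM or more. In those 9 rows of replicate 1 the posterior mean was 0.976 of the point value.

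Together the mitochondrial rows held 469156 and 512482 counts, or 1.71% and 1.83% of gene counts, with 95% Clopper-Pearson intervals of 1.708 to 1.717 and 1.827 to 1.837 that cover counting error only. With the copies added they held 2.45% and 2.52%. In TPM, which weights short rows more, the rows summed to 28568 and 32006. Protein-coding rows held 82.1% and 82.4% of the mitochondrial counts, and rRNA rows held 17.9% and 17.6%. With the copies added the rRNA share was 12.5% and 12.8%. These are shares of reads in these libraries. Whether the protocol captured each RNA in proportion to its abundance was not tested, which holds for the ratios between rows below too. All 15 mRNA and rRNA rows were detected, that is reached 1 TPM in each library, against 16.6% of all gene rows.

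The mRNAs of the ATP synthase, complex V, stood highest among the rows taken alone. mt-Atp6 (ENSMUSG00000064357.1, chrM:7927-8607), which encodes the membrane subunit a of the proton channel, was at 6884 and 7539 TPM. mt-Atp8 (chrM:7766-7969), a small membrane subunit, was at 6094 and 6717 TPM. Both libraries thus placed these 2 rows above every other mitochondrial row, and they ranked 4 and 8 among all genes in replicate 1 and 4 and 6 in replicate 2. The reading frames of the pair share 43 bases, printed in capitals here from chrM:7907-7969 and chrM:7927-7989 (plus strand), as they are translated from 1 mRNA that carries both.
mt-Atp8: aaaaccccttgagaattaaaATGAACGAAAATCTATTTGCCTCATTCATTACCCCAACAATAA
mt-Atp6: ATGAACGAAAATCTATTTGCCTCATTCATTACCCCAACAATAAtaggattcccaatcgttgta

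The effective length of mt-Atp8, the number of positions at which a read can start, is only 105 bases, so its TPM rests on 14320 and 15643 counts while mt-Atp6 held 89670 and 97314. The ratio of mt-Atp6 to mt-Atp8 in TPM was 1.13 and 1.12 for the rows alone and 1.47 and 1.38 with the reads of Gm10925 added.

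Cytochrome c oxidase, complex IV, takes its 3 catalytic core subunits from the mitochondrial genome. mt-Co1 (chrM:5328-6872), the subunit that binds oxygen, was at 2083 and 2134 TPM. mt-Co2 (chrM:7013-7696), which receives electrons from cytochrome c, was at 1420 and 2667 TPM, and at 1922 and 2645 by posterior mean TPM. The point values differed by 1.88 times, the largest ratio of the 15 rows, and the posterior means by 1.38 times, below those of mt-Nd5 and mt-Nd6. With the copies added, mt-Co2 was at 3556 and 4234 TPM, mt-Co1 at 2867 and 2873, and mt-Co3 (chrM:8607-9390) at 8602 and 8857. By this measure mt-Co3 moved from place 9 to place 2 among the 15 rows, behind mt-Atp6 at 8965 and 9251 TPM, and the ranges of those 2 did not overlap.

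mt-Cytb (chrM:14145-15288), which encodes cytochrome b, the one complex III subunit made in the organelle, was at 2833 and 2807 TPM from 66255 and 65065 counts. Its level differed by -0.01 on the log2 scale between libraries, and it has no copy in the chromosome 1 block.

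The 7 subunits of complex I, the NADH dehydrogenase, covered a wide range. mt-Nd1 (chrM:2751-3707) was highest at 2574 and 2822 TPM, and its range overlapped that of mt-Cytb. mt-Nd4 (chrM:10167-11544) followed at 1200 and 1117 TPM and mt-Nd2 (chrM:3914-4951) at 642 and 801. mt-Nd3 (chrM:9459-9806) was at 337 and 361 TPM alone and at 1320 and 1789 with Gm28438 added, a mean 4.45 times as high. mt-Nd4l (chrM:9877-10173) was the lowest of the 15 rows at 52.4 and 37.9 TPM, and with Gm10222 added it was at 489 and 441. mt-Nd4l and mt-Nd4 are carried on 1 mRNA with a 7-base overlap of their reading frames. The ratio of mt-Nd4 to mt-Nd4l was 22.9 and 29.5 for the rows alone and 2.45 and 2.53 with the copies added.

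mt-Nd5 (chrM:11742-13565) and mt-Nd6 (chrM:13552-14070) were low and differed most between libraries among the rows without an annotated chromosome 1 copy. mt-Nd5 was at 227 and 393 TPM from 8764 and 15036 counts. mt-Nd6, the only mRNA coded on the opposite strand to the other 12, was at 282 and 509 TPM from 2652 and 4743 counts. Both rows were higher in replicate 2, by 1.73 and 1.80 times, while mt-Cytb next to them was not. Their rows share 14 bases on opposite strands, and the sources used here do not say whether counting used strand, so sense and antisense reads of this region cannot be told apart.

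The 2 ribosomal RNAs are transcribed next to each other. The 16S rRNA gene mt-Rnr2 (chrM:1094-2675) was at 2220 and 2434 TPM and the 12S rRNA gene mt-Rnr1 (chrM:70-1024) at 544 and 533. The ranges of the pair did not overlap, with a ratio of mt-Rnr2 to mt-Rnr1 of 4.08 and 4.57. mt-Nd1, separated from mt-Rnr2 by a tRNA gene alone, stood at 1.16 times mt-Rnr2 in both libraries.

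All 22 tRNA rows had 0 counts in both libraries, and no level can be read from them. They are 59 to 75 bases long, and effective lengths in these tables are 99 bases shorter than lengths, so all 22 had an effective length of 0 and could hold no read. The RNA was also selected above 200 nucleotides. Besides mt-Tl1 and mt-Ts2, printed here, the rows are mt-Tf, mt-Tv, mt-Ti, mt-Tq, mt-Tm, mt-Tw, mt-Ta, mt-Tn, mt-Tc, mt-Ty, mt-Ts1, mt-Td, mt-Tk, mt-Tg, mt-Tr, mt-Th, mt-Tl2, mt-Te, mt-Tt and mt-Tp. The longest and shortest rows are printed to show the size, mt-Tl1 at chrM:2676-2750 and mt-Ts2 at chrM:11613-11671, which encode tRNAs for leucine and serine.
mt-Tl1: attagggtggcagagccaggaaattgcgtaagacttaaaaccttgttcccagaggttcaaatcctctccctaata
mt-Ts2: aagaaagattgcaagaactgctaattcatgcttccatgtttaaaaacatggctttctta

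**Figure D2:**
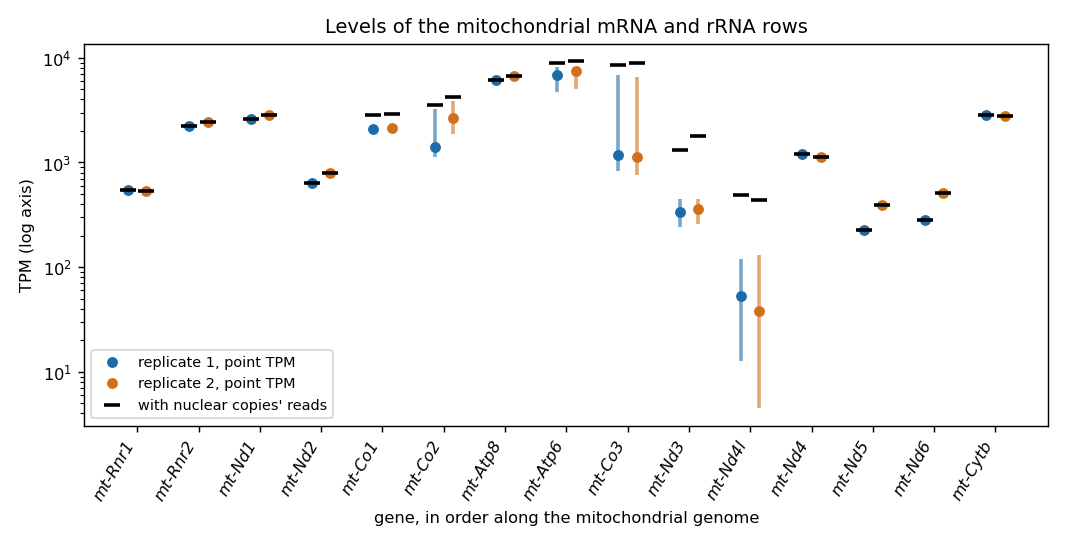
TPM on a log axis of the 13 mRNA and 2 rRNA rows in order along the mitochondrial genome, for replicate 1 (blue) and replicate 2 (orange). Vertical lines are the deposited intervals and black dashes the level with nuclear copies' reads added, which lies far above the points for mt-Co3, mt-Nd3 and mt-Nd4l.

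In the order of the 15 rows taken alone, 9 of 14 neighbouring pairs had ranges over the 2 libraries that did not overlap. The order began with mt-Atp6, mt-Atp8, mt-Cytb and mt-Nd1. The pairs that overlapped were mt-Cytb with mt-Nd1, mt-Co1 with mt-Co2, mt-Nd4 with mt-Co3, mt-Nd6 with mt-Nd3, and mt-Nd3 with mt-Nd5. With the copies added 11 of 14 neighbouring pairs were apart, and the order began with mt-Atp6, mt-Co3, mt-Atp8 and mt-Co2. A range over 2 libraries is a weak measure of spread, and it leaves out the deposited intervals. That of mt-Atp6, 4721 to 8199 and 5086 to 8220 TPM, spanned that of mt-Atp8, 5852 to 6046 and 6453 to 6658. By posterior mean TPM mt-Atp6 was at 6320 and 6568 and mt-Atp8 at 5948 and 6554. By that measure mt-Co3, at 3036 and 3010, stood above mt-Cytb at 2765 and 2739.

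No mitochondrial row differed 2-fold between the libraries on the log2(TPM + 1) scale, against a background of 51.3% of the 7680 genes whose mean was 10 TPM or more. The background falls with level, to 12% of 684 genes from 200 to 1000 TPM and 0% of 139 genes at 1000 TPM or more, the band of 9 of the 15 mitochondrial rows that held reads. The median difference, replicate 2 minus replicate 1, was 0.13 over the 13 mRNA rows, with 9 of them above 0 and 4 below. With TMM or DESeq2 scaling mt-Co1 changed direction, which gave 8 and 5. With the rRNA rows, 10 of 15 were higher in replicate 2, against 50.6% of the 7680 genes. Over the 139 abundant genes the median was 0.02. The absolute difference had a median of 0.13 over the 15 rows and of 0.18 over those genes. Only mt-Co2, mt-Nd5 and mt-Nd6 differed more than 1.5-fold, and with copies added only mt-Nd5 and mt-Nd6 did, as mt-Co2 went from 0.91 to 0.25. mt-Nd3 moved the other way, from 0.10 to 0.44. By posterior mean TPM, too, mt-Nd5 and mt-Nd6 were the rows past 1.5-fold, at 1.73 and 1.80 times. The deposited intervals of the libraries did not overlap for 8 of the 15 rows, against 89.9% of the 7680 genes. As the spike-in share of TPM was 8.44% and 6.56%, genes had a larger part of TPM in replicate 2, and rescaling TPM over genes alone gave a median of 0.10. The summed erythroid level given above was higher in replicate 2, with a median difference of 0.26 over 7 genes, and that of the 5 neural progenitor genes was 1226 and 2453 TPM, with a median difference of 1.06 over 4 genes. The part of either in the difference was not tested.

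**Figure D3:**
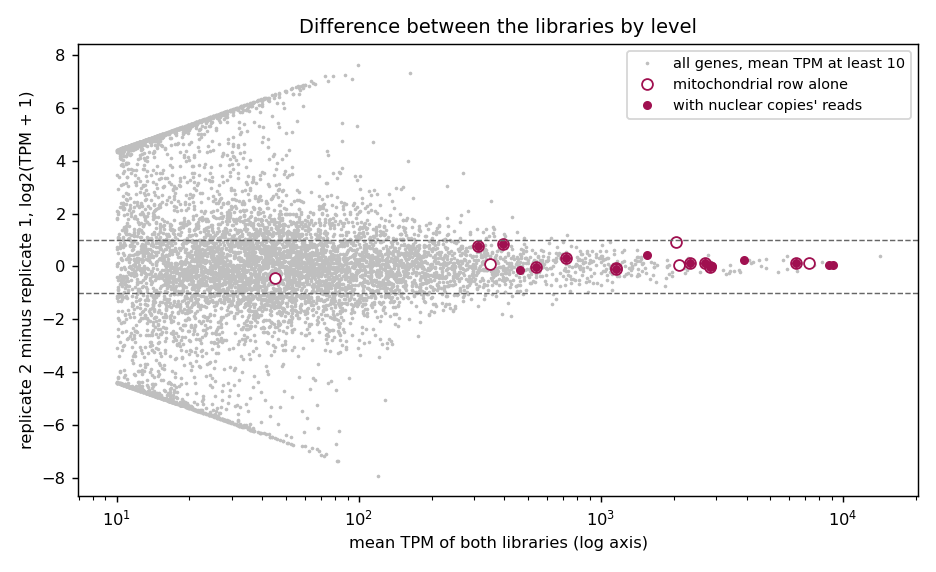
Difference between the libraries on the log2(TPM + 1) scale against mean TPM on a log axis, for the 7680 genes whose mean was 10 TPM or more (grey), mitochondrial rows alone (open circles) and with copies added (filled). Dashed lines mark 2-fold; every mitochondrial row lies between them, with mt-Co2 alone the nearest to the line at 0.91.

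Nuclear subunit genes of the same complexes were mostly lower per gene than the mitochondrial ones. Of the 13 mitochondrial mRNA rows, 12 had a mean TPM above the median of the nuclear subunits of their complex, and with copies added all 13 did. Copies of the nuclear subunit genes were not searched for, so this addition was made for the mitochondrial rows alone. For complex IV the median over 11 nuclear genes was 719 TPM, led by Cox4i1 at 1177 and 948, Cox6a1 at 899 and 1132 and Cox6c at 928 and 740. Each of the 3 mitochondrial rows was above every nuclear one in mean TPM, but the range of mt-Co3 alone, at 1175 and 1134 TPM, overlapped that of Cox4i1. For complex V the 15 nuclear genes had a median of 746 TPM and were led by Atp5b, a catalytic subunit, at 2082 and 2089, with Atp5g3, of the rotating c ring, at 1171 and 1122 and Atp5h at 794 and 1196. For complex III the 9 nuclear genes had a median of 529 TPM, with Uqcr10 at 833 and 973, Uqcrq at 768 and 910 and Uqcrb at 444 and 684, and mt-Cytb was above all of them. Complex I was mixed, since the 36 nuclear genes had a median of 275 TPM and a highest member, Ndufc1, at 880 and 877. Ndufab1 followed at 893 and 790 and Ndufa3 at 817 and 644. Only mt-Nd1 and mt-Nd4 were above the highest, joined by mt-Nd3 with its copy added. These are levels of RNA in the same libraries, and the difference between the genomes was not tested. All 71 nuclear subunit genes reached 1 TPM in both libraries, against 16.6% of all gene rows. Of the 71, 5 were 2-fold higher in replicate 2 and 5 in replicate 1, against backgrounds of 26.6% and 24.7% at 10 TPM or more. The medians of these complexes lie from 275 to 746 TPM, and the background of genes from 200 to 1000 TPM was 12% either way.

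**Figure D4:**
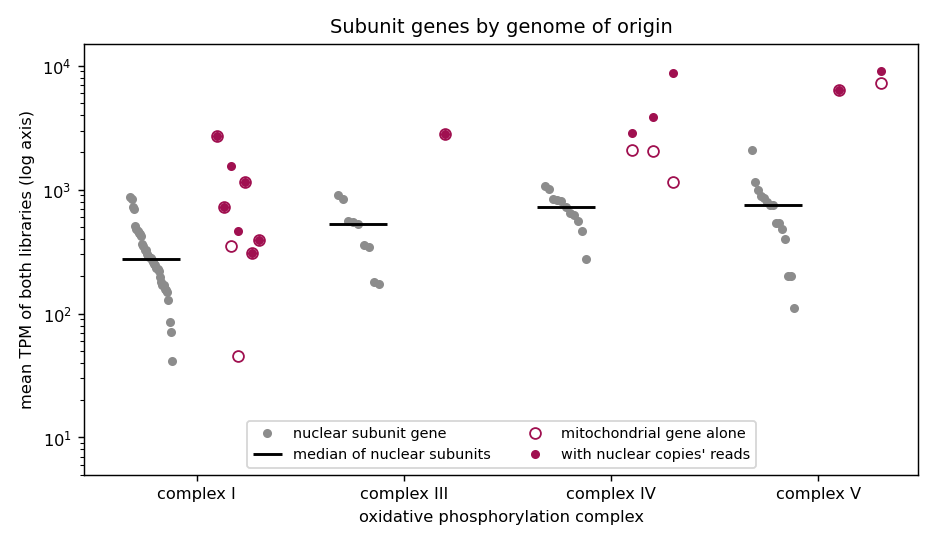
Mean TPM of both libraries on a log axis for nuclear subunit genes (grey, with the median as a line) and mitochondrial genes alone (open) or with copies added (filled), by complex. In complexes III, IV and V all mitochondrial genes lie above the highest nuclear gene, and in complex I 2 of 7 do alone and 3 with copies added. Copies of the nuclear subunit genes were not searched for.

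The nuclear genes that replicate and transcribe the mitochondrial genome were led by Ssbp1 and Tfam. Tfam, which packs mitochondrial DNA and starts its transcription, was at 102 and 142 TPM, and Ssbp1, the single-strand binding protein of its replication, at 161 and 239. Polrmt, the mitochondrial RNA polymerase, was at 88.9 and 10.8 TPM, and Tfb2m, its initiation factor, at 16.9 and 1.68. Of 10 listed transcription genes, 4 were detected in both, against 16.6% of all gene rows. Of the 6 that averaged 10 TPM or more, 4 were 2-fold higher in replicate 2, Mterf3 among them at 0.69 and 87.1 TPM, and 1 in replicate 1, against backgrounds of 26.6% and 24.7%. Of 10 genes for DNA replication and maintenance 7 were detected in both, against the same 16.6%. Of the 7 that averaged 10 TPM or more, 3 were 2-fold higher in replicate 2 and 0 in replicate 1. The backgrounds were the same 26.6% and 24.7%. Exog, an endonuclease, was 1 of the 3, at 29.6 and 71.6 TPM.

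Genes that act on mitochondrial transcripts were detected in both libraries for 14 of 20 matched members, against 16.6% of all gene rows. Slirp and Lrpprc, whose products bind mitochondrial mRNAs together, were at 313 and 331 TPM and at 12.0 and 12.0. Hsd17b10, a subunit of the enzyme that cuts tRNAs at their 5′ end, was at 192 and 163 TPM, Rexo2, an RNase, at 109 and 118, and Mtpap, the mitochondrial poly(A) polymerase, at 14.5 and 38.2. Of the 15 of these past that average, 3 were 2-fold higher in each library, where the backgrounds are again 26.6% and 24.7%. Translation factors and ribosome assembly genes were detected in both for 9 of 16, against the same 16.6%, led by the elongation factors Tufm at 142 and 118 TPM, Tsfm at 61.2 and 174 and Gfm1 at 70.5 and 57.6. Of the 11 past that average, 4 were 2-fold higher in replicate 2 and 5 in replicate 1, against the same 26.6% and 24.7%. Genes used as gauges of mitochondrial content were detected in both for 15 of 16, also against 16.6%, led by the ADP/ATP carrier gene Slc25a5 at 927 and 641 TPM, Hspe1, a chaperonin subunit, at 565 and 604, and the import channel gene Timm23 at 313 and 503. Their median difference was 0.09. For scale, the nuclear noncoding RNA Malat1 was at 5064 and 6717 TPM and the actin gene Actb at 4929 and 4705.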

How the data were processed

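The authors deposited a gene and a transcript table per library. Per the file headers, these give expected counts (estimated reads, not normalized), TPM and FPKM with posterior means, and, per transcript, the percent of its gene's TPM. The posterior SDs and interval bounds that the authors deposited were treated as a score, and the level of those intervals is not stated. Per the text deposited beside each table, it rests on an alignment to transcripts with build mm10 and annotation M4. For the aligner, the counting program and the use of strand, the sources used here give nothing. Symbols and coordinates (1-based) came from GENCODE M21, also mm10, and 37 of 37 deposited lengths equalled its transcript lengths. The transcript TPM equalled the gene TPM for 37 of 37 members.

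Nuclear copies were found with BLAST+ 2.17.0 (blastn, identity of at least 90% over at least 100 bases). Copies' counts were added to the mitochondrial row and divided by its effective length. Differences use log2(TPM + 1). TMM scaling by edgeR 4.0.16 and size factors by DESeq2 1.42.0, on rounded counts, were alternatives only. The code of the 2-fold count was checked on simulated counts with sampling noise alone. That check does not cover the larger spread between these libraries. Depth was 28639678 and 28948074 counts, spike-ins included. A count of 0 allows up to 3 counts, or 0.110 and 0.107 CPM. The text names all members, nuclear copies with at least 100 counts, the 3 members of highest mean TPM of each list, Polrmt, Tfam, Tfb2m, Lrpprc, Slirp and Mtpap, and Hbb-y, Malat1 and Actb for scale. Gm28439 was added after its values were seen. One marker gene is not reported here. Members and lists were chosen with earlier results of these data known.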

Additional observations from a re-analysis of the deposited data

How the results depend on the processing

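The count of mitochondrial rows past 2-fold was 0 under the scalings, pseudocounts and filters tried, and 15 rows were detected in both libraries with a minimum of 0.1, 1 or 10 TPM. The mean share of gene counts, 1.77%, was 1.87% with posterior mean counts and 2.49% with nuclear copies added, and ranged from 1.71% to 1.83% with either replicate left out. The mean share of TPM, 3.03%, was 3.27% after rescaling over genes alone and 4.61% with nuclear copies added, and ranged from 2.86% to 3.20%. The median difference of the mRNA rows, 0.13, was 0.07 with TMM, 0.08 with DESeq2 size factors and 0.09 with pairs summed. It was 0.23 over the rows without an annotated chromosome 1 copy, an alternative chosen after seeing the data. The rRNA share of mitochondrial counts, 17.8%, was 16.9% with posterior mean counts, 12.7% with nuclear copies added and 9.47% as a share of TPM, and ranged from 17.6% to 17.9%. The copies' share of the 7 pairs, 45.1%, was 39.2% with posterior mean counts, also added after seeing the data, and ranged from 43.4% to 46.7%. The cause of these shifts was not tested beyond what each alternative changes by construction. No paired analysis was possible because the series has 1 group. The mRNA and rRNA row of lowest level, mt-Nd4l, held 232 and 167 counts, with a posterior SD of 127 and 160.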
